A study of Mus musculus with 3 samples.

Results

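The complement genes described here were *C1qa*, *C1qb*, *C1qc*, *C3*, *C4b*, *Serping1*, *C3ar1* and *C5ar1*, 8 of the 27998 genes in the count tables. They were chosen by name, and all 8 were detected. They were measured by droplet-based scRNA-seq in ventricular non-cardiomyocytes of wild-type mice (C57BL/6J JCL males, 8 weeks old at surgery) before and after transverse aortic constriction (TAC), which narrows the aortic arch and loads the left ventricle with pressure. There was 1 library for each of 3 phases, namely the healthy heart without TAC (0 weeks), adaptive hypertrophy (2 weeks of TAC) and heart failure (12 weeks of TAC). Phase and library cannot be told apart, and the labels do not give the number of hearts in a library. Hearts had their atria removed and were digested with collagenase, and fewer cells of a class and poorer recovery of that class cannot be told apart.

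Complement is a cascade of plasma proteins that tags microbes, dying cells and debris for removal. In the classical pathway, C1q binds a target and the attached proteases cut C4 to build the C3 convertase, which cuts C3. The small fragments C3a and C5a are sensed by receptors on leukocytes. *C1qa*, *C1qb* and *C1qc* encode the 3 chains of C1q, which tissue macrophages make locally, whereas most plasma C3 and C4 come from the liver. *Serping1* encodes the C1 inhibitor that blocks the C1 proteases, and *C3ar1* and *C5ar1* encode the receptors for C3a and C5a.

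Cells were assigned to classes by summed marker UMIs (unique molecular identifiers), with no member among the markers. A class needed at least 2 UMIs over its list and at least 60% of the UMIs over all 10 lists. Healthy, adaptive hypertrophy and heart failure cells numbered 1143, 1758 and 306 for endothelial cells (ECs), 1181, 86 and 172 for fibroblasts (FBs), and 464, 82 and 42 for mural cells, which are pericytes and smooth muscle cells. Macrophages, gated on *Adgre1*, *Cd68* and *Fcgr1*, numbered 513, 45 and 14, and monocytes 30, 48 and 12. The macrophage marker *Csf1r*, which was not in the gate, had a UMI in 87.1%, 73.3% and 78.6% of gated macrophages. Levels are CPM, the UMIs of a gene per 1000000 UMIs of the class, with exact 95% Poisson intervals, and ratios carry exact 95% binomial intervals. These intervals reflect the number of UMIs alone and say nothing of how hearts vary, and with 1 library per phase no test was possible. In 3′ libraries a transcript is counted at its end, so levels of different genes were compared without a correction for length.

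The 3 libraries held 3892, 2231 and 792 cells after filtering, with median depths of 2589, 1495 and 1434 UMIs per cell. Transcripts of other classes were found in ECs to a different extent in each library. The FB transcript *Dcn* had a UMI in 44.2% of healthy ECs, 4.15% of ECs in adaptive hypertrophy and 36.3% in heart failure. The myeloid transcript *Lyz2* followed the same order in ECs, at 23.6%, 2.39% and 21.6%. Low levels of members outside their main class were read against these shares.

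On GRCm38, the C1q genes stood next to each other on chromosome 4 within 18675 bases (chr4:136880129-136898803), all on the minus strand. *C3* (chr17:57203970-57228136) and *C4b* (chr17:34728380-34743882) each had 41 exons. *Serping1* lay at chr2:84765387-84775444, *C3ar1* at chr6:122847138-122856161 and *C5ar1* at chr7:16246743-16259540. The mouse genome holds *C4a*, a near-identical copy of *C4b*, which had no row of its own in these tables, so the *C4b* counts are uncertain as to the copy.

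Over ECs, FBs, mural cells, macrophages and monocytes, 5 members were highest in macrophages and 3 in FBs, and 1 proximal promoter of each is printed to show the sequence upstream of a gene of each group. Both are the 250 bases before the RefSeq transcription start (GRCm38.p6, minus strand, 5′ to 3′). Capitals mark GAGGAA, a core of sites for the myeloid factor PU.1, in *C1qb* (chr4:136886201-136886450) and TTGCGNAA, a C/EBP-type site, in *C3* (chr17:57228137-57228386).
C1qb: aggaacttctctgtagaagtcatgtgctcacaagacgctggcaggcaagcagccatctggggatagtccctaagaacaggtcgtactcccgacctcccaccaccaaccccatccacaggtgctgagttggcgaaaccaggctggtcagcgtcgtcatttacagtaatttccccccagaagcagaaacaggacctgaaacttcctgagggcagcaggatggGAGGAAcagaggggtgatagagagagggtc
C3: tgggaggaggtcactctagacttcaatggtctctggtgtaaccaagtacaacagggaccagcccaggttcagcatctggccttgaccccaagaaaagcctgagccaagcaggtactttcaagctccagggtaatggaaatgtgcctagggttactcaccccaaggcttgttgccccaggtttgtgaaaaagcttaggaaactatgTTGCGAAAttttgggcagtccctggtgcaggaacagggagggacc
The *C1qb* match began 30 bases before the start and the *C3* match 45 bases before it. GAGGAA or its reverse TTCCTC was in 23.3% of 32851 RefSeq promoters of this length, and TTGCGNAA or its reverse TTNCGCAA in 0.670%, so the first is common and the second rare. A promoter sequence was given for 5 of the 8 members. Of those not printed, *C1qc* held GAGGAA in reverse, beginning 193 bases before its start, while neither motif was in the windows of *C3ar1* and *C5ar1*. These matches describe letters only, and no binding was measured.

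C1q was a macrophage product in these hearts, and its chains were among the most abundant transcripts of these cells. In healthy macrophages *C1qa* was at 5573 CPM (9069 UMIs), *C1qb* at 5920 CPM (9634 UMIs) and *C1qc* at 4325 CPM (7038 UMIs). By summed UMIs they ranked 15th, 13th and 22nd of 27998 genes in these cells. A *C1qa* UMI was in 506 of 513 healthy macrophages (98.6%), and 502 cells (97.9%) held UMIs of all 3 chains.

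In macrophages the shares of the chains differed little between phases, but the order of *C1qa* and *C1qb* was not the same in each. In the healthy library *C1qa* made up 35.2% of C1q UMIs (34.6 to 35.8) and *C1qb* 37.4% (36.8 to 38.0). *C1qa* made up 37.8% (35.5 to 40.2) in adaptive hypertrophy and 36.6% (33.2 to 40.1) in heart failure. *C1qb* made up 34.8% (32.5 to 37.1) and 37.9% (34.5 to 41.5), so it was below *C1qa* in adaptive hypertrophy only. The few C1q UMIs of healthy FBs (563) and mural cells (818) were split alike, with *C1qa* at 36.4% (32.4 to 40.5) in FBs and 32.5% (29.3 to 35.8) in mural cells. In monocytes of heart failure *C1qa* made up 56.1% (42.4 to 69.3) of 57 C1q UMIs. Its UMIs came from few of the 12 cells, and the interval takes no account of that.

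C1q levels were low in ECs, FBs and mural cells against those of macrophages. In these classes they were lowest in the library with the fewest foreign transcripts in ECs. *C1qa* was 36.6-fold lower in healthy mural cells (152 CPM), 106-fold lower in FBs (52.8 CPM) and 136-fold lower in ECs (41.0 CPM). In adaptive hypertrophy, where the *Dcn* and *Lyz2* shares of ECs were lowest, *C1qa* was at 12.7 CPM in ECs and at 3.71 CPM in mural cells (1 UMI). The part of cell-free RNA in these levels was not tested. The 86 FBs of that library held 0 *C1qa* UMIs, which allows up to 11.9 CPM. Cells of these classes with a *C1qa* UMI were 7.87% of healthy ECs, 8.04% of FBs and 12.7% of mural cells at 2256, 3002 and 2993.5 median UMIs per cell. Healthy neural cells (47 cells with 3 *C1qa* UMIs in all) gave 6.38% at 1914 UMIs. Single cells held up to 26 *C1qa* UMIs among healthy mural cells and 36 among healthy FBs, and doublets were not called.

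Monocytes held intermediate levels. Their *C1qa* level was 780 CPM (603 to 992) in the healthy library, 222 CPM (142 to 331) in adaptive hypertrophy and 775 CPM (530 to 1094) in heart failure. The UMIs came from 5 of 30, 6 of 48 and 3 of 12 monocytes, so most monocytes had none.

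**Figure D1:**
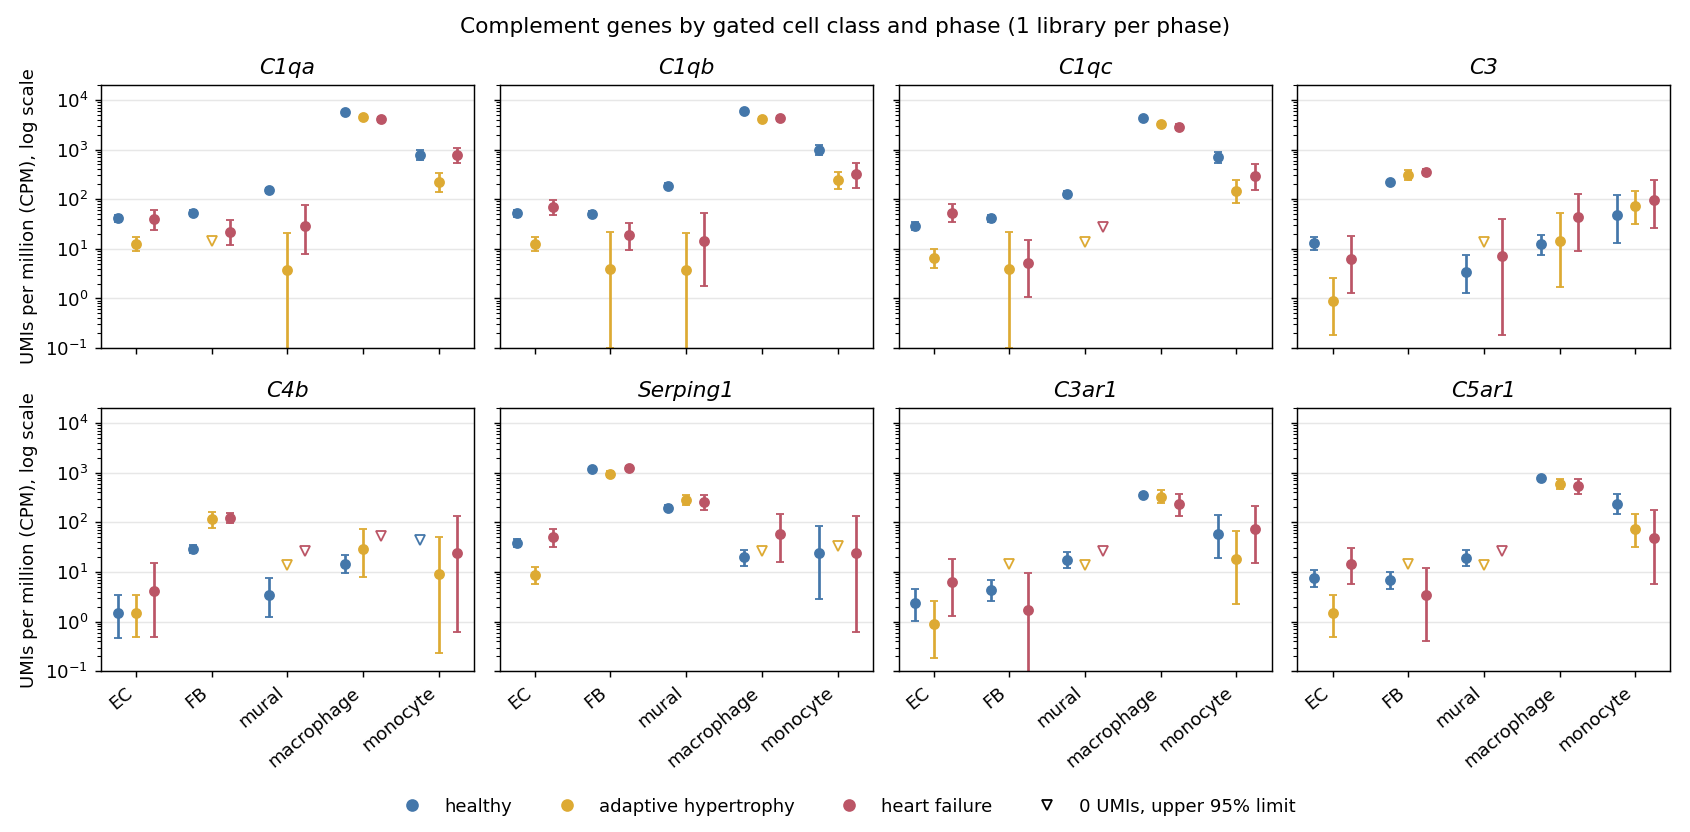
Level of each of the 8 members (CPM, log axis) in 5 gated classes, with 1 point per phase, exact 95% Poisson intervals and open triangles at the upper limit where no UMI was counted. C1q and the receptors *C3ar1* and *C5ar1* are highest in macrophages in every phase, and *C3*, *C4b* and *Serping1* in FBs.

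After TAC, far fewer macrophages were recovered, and the C1q level of the gated class was lower. Macrophages were 13.2% of healthy cells, 2.02% of cells in adaptive hypertrophy and 1.77% in heart failure. With *Csf1r* and *Mrc1* added to the gate they numbered 767 of 3892, 88 of 2231 and 42 of 792 cells, so the share was then larger in heart failure than in adaptive hypertrophy. The C1q chains together were at 15817, 12095 and 11199 CPM, from 25741, 1693 and 770 UMIs. The ratio to healthy was 0.765 (0.728 to 0.803) in adaptive hypertrophy and 0.708 (0.658 to 0.761) in heart failure. The heart failure ratio was 0.195 when 90% of gate UMIs were required, which left 4 cells. Each chain was lower in both phases, with ratios from 0.711 for *C1qb* to 0.821 for *C1qa* in adaptive hypertrophy and from 0.659 for *C1qc* to 0.736 for *C1qa* in heart failure.

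Cells with little or no C1q were a larger share of the class after TAC. Macrophages without any C1q UMI were 5 of 513 (0.975%, 0.317 to 2.26) in the healthy library, 7 of 45 (15.6%, 6.49 to 29.5) in adaptive hypertrophy and 3 of 14 (21.4%, 4.66 to 50.8) in heart failure. Their depths spread widely, with 2058 UMIs in the shallowest and 6644 in the deepest healthy cell, 692 and 7371 in adaptive hypertrophy, and 1914 and 9448 in heart failure. The cell with 692 UMIs was the shallowest macrophage of its library. In heart failure the 14 cells ranged from 0 to 240 C1q UMIs per 10000, and the cell with the most held 260 of the 770 C1q UMIs.

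Some of the macrophages poor in C1q carried markers of dendritic cells, antigen-presenting cells that can also express *Cd68*. Of 7 dendritic markers (*Flt3*, *Zbtb46*, *Cd209a*, *Clec9a*, *Xcr1*, *Itgax* and *Ccr7*), a UMI was in 7 of 14 healthy macrophages with fewer than 10 C1q UMIs and in 14 of 499 with 10 or more (2.81%). The shares were 6 of 11 and 4 of 34 in adaptive hypertrophy, and 2 of 5 and 1 of 9 in heart failure. Their summed level was 562 against 10.8 CPM, 1452 against 37.9 CPM and 215 against 24.5 CPM in the 3 phases. *Cd209a*, a lectin of monocyte-derived and conventional dendritic cells, made up much of this in 2 phases. In the cells poor in C1q it gave 20 of 33 dendritic UMIs in the healthy library and 39 of 50 in adaptive hypertrophy. In heart failure it gave 0 of 6. *Zbtb46* had 0, 1 and 0 UMIs in the cells poor in C1q, against 2, 0 and 0 in the larger groups with 10 or more C1q UMIs. *H2-Aa*, an MHC class II gene, was at 11724, 13637 and 9727 CPM in the macrophages without C1q of the 3 phases, against 5088, 8301 and 7519 CPM in those with 10 or more C1q UMIs. In those with 1 to 9 C1q UMIs it was at 12478, 4658 and 3838 CPM, so the order did not hold for them after TAC. *Clec9a* and *Xcr1*, markers of the cross-presenting type, had 4 UMIs each in the healthy cells poor in C1q, 0 in adaptive hypertrophy and 1 each in heart failure.

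The phases were closer without the 21, 10 and 3 macrophages that held a dendritic marker UMI. C1q was then at 16329 CPM in 492 healthy cells, 15027 CPM in 35 cells of adaptive hypertrophy and 15559 CPM in 11 cells of heart failure. The ratios to healthy became 0.920 (0.872 to 0.970) and 0.953 (0.884 to 1.03). *C1qa* alone gave 1.01 in both phases, whereas *C1qb* stayed at 0.817 (0.744 to 0.895) in adaptive hypertrophy. The median cell held 157, 154 and 149 C1q UMIs per 10000 in the 3 phases. This marker list was written after the cells poor in C1q had been looked at, so these values restate that observation and are not independent support for it. Of the macrophages without C1q, 2 of 5, 2 of 7 and 2 of 3 had no dendritic marker UMI.

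**Figure D2:**
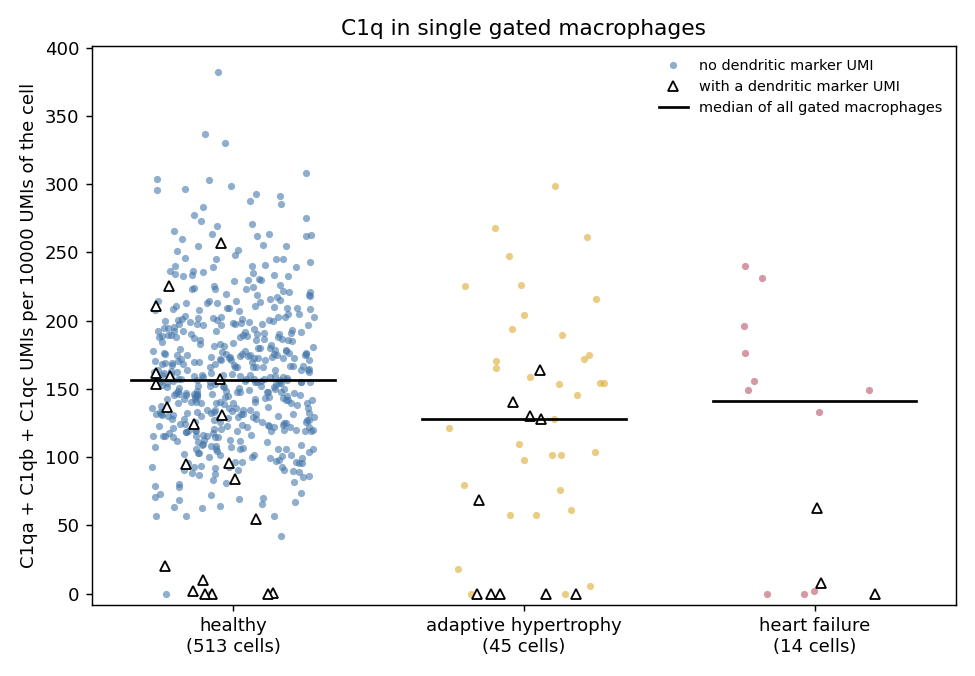
C1q UMIs (sum of 3 chains) per 10000 UMIs in each gated macrophage by phase, where triangles are cells with a UMI of any of 7 dendritic markers and lines are medians over all cells (156, 128 and 141). Of the cells with fewer than 10 C1q UMIs, 7 of 14, 6 of 11 and 2 of 5 are triangles.

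Set beside all genes, the macrophage members did not stand out between phases. Of the 8 members, all with at least 20 UMIs over both phases, 1 differed at least 2-fold in adaptive hypertrophy and 3 in heart failure. Over all genes tested in macrophages these shares were 25.5% and 35.1%. None of the C1q chains was among them, and those counted (*C3*, *C4b* and *Serping1*) had at most 4 UMIs in macrophages after TAC. The median log2 ratio over all genes in heart failure macrophages was -0.12, and divided by it the C1q ratio was 0.769. Against other classes, 5 of 8 members (*C1qa*, *C1qb*, *C1qc*, *C3ar1* and *C5ar1*) were at least 10-fold higher in healthy macrophages than in each of ECs, FBs and mural cells, against 2.15% of all genes. For FBs this held for *C3* alone, against 1.40% of all genes.

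Cells with resident macrophage markers (at least 2 UMIs of *Folr2*, *Lyve1* and *Timd4*) numbered 231 of 513, 6 of 45 and 3 of 14. They had more *C1qa* than the other macrophages in each phase. The levels were 6299 against 4868 CPM in the healthy library, a ratio of 1.29 (1.24 to 1.35), 8844 against 3577 CPM in adaptive hypertrophy (2.47, 2.10 to 2.91) and 9174 against 2200 CPM in heart failure (4.17, 3.26 to 5.35). The last pair rests on 172 UMIs in 3 cells and 110 UMIs in 11 cells. *C1qb* and *C1qc* were ordered alike, with healthy ratios of 1.17 and 1.27. Whether the dendritic marker cells among the others set these gaps was not tested.

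The anaphylatoxin receptors were also highest in macrophages among the 5 classes. *C5ar1* was at 779 CPM (737 to 823), 593 CPM (472 to 735) and 538 CPM (379 to 742) in macrophages of the 3 phases. *C3ar1* was at 358 CPM (330 to 389), 329 CPM (241 to 438) and 233 CPM (133 to 378). In healthy macrophages a *C5ar1* UMI was in 78.2% of cells and a *C3ar1* UMI in 62.0%. Thinned to 1000 UMIs per cell, the shares were 48.1% and 30.4%.

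The ratio of *C5ar1* to healthy was 0.761 (0.602 to 0.951) in adaptive hypertrophy and 0.691 (0.484 to 0.957) in heart failure. Without the cells with dendritic markers these were 0.997 (0.784 to 1.25) and 0.907 (0.629 to 1.27). For *C3ar1* the ratios were 0.917 (0.664 to 1.24) and 0.650 (0.369 to 1.06), and the intervals include no difference. In heart failure a single macrophage held 14 of the 37 *C5ar1* UMIs, and without it the level was 400 CPM. For *C3ar1* a single macrophage held 7 of 16 UMIs, and without it the level was 157 CPM. The intervals take no account of this. In the macrophages without C1q there were 0 *C3ar1* UMIs in each phase, and 4, 2 and 1 *C5ar1* UMIs.

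*C5ar1* was also found in other myeloid cells. Neutrophils, of which there were 4, 8 and 13, held it at 395 CPM (145 to 860), 427 CPM (157 to 930) and 902 CPM (515 to 1464). They were below macrophages in the healthy library and adaptive hypertrophy, from 6 UMIs in each, and above macrophages (538 CPM) in heart failure. The intervals of both classes overlap in each phase. In heart failure neutrophils gave 16 of the 98 *C5ar1* UMIs of the library (16.3%), against 37 from macrophages. Monocytes were at 236 CPM (144 to 365), 74.1 CPM (32.0 to 146) and 48.4 CPM (5.87 to 175), below macrophages in each phase. *C3ar1* had 1 UMI in the healthy neutrophils and 0 in those of the other phases.

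*C3*, the protein on which all complement pathways converge, was an FB transcript in these hearts. It was at 218 CPM (204 to 233, 848 UMIs) in healthy FBs, 312 CPM (247 to 389, 79 UMIs) in adaptive hypertrophy and 350 CPM (304 to 402, 207 UMIs) in heart failure. Healthy ECs were at 12.9 CPM, macrophages at 12.3 CPM and mural cells at 3.44 CPM, while monocytes held 4 UMIs (47.2 CPM). FBs gave 86.2%, 66.4% and 71.9% of the *C3* UMIs of the 3 libraries.

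*C3* was carried by a minority of FBs. A UMI was in 307 of 1181 healthy FBs, 18 of 86 (20.9%) in adaptive hypertrophy and 62 of 172 (36.0%) in heart failure. The 10% of cells with most held 72.6%, 87.3% and 62.3% of the UMIs. A single cell held 24 of the 79 UMIs in adaptive hypertrophy.

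The ratio to healthy was 1.43 (1.12 to 1.80) in adaptive hypertrophy and 1.61 (1.37 to 1.87) in heart failure. Without the cell with most UMIs in each phase the first became 1.03, and with at least 3 marker UMIs required per cell 0.958, so its direction rests on few cells. The heart failure ratio stayed between 1.51 and 2.23 over all alternatives. Over all FBs both ratios were below 2-fold.

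*C4b*, which is cut by the C1 proteases to build the C3 convertase, showed the largest difference between phases of the 3 FB members. It was at 28.8 CPM (23.7 to 34.7, 112 UMIs) in healthy FBs, 115 CPM (76.8 to 165, 29 UMIs) in adaptive hypertrophy and 124 CPM (96.9 to 155, 73 UMIs) in heart failure. The ratios were 3.98 (2.55 to 6.03) and 4.29 (3.15 to 5.81). FBs gave 66.3%, 38.2% and 65.8% of the *C4b* UMIs of the 3 libraries. Per UMI, the few neural cells (47, 18 and 12) held more than FBs in each phase, at 134 CPM (71.3 to 229, 13 UMIs), 406 CPM (227 to 670, 15 UMIs) and 322 CPM (129 to 663, 7 UMIs), and gave 19.7% of the *C4b* UMIs in adaptive hypertrophy. A UMI was in 47 of 1181 (3.98%), 16 of 86 (18.6%) and 26 of 172 FBs (15.1%). After thinning the shares were 1.78%, 2.94% and 9.68%, but thinning left out 18 of the 86 FBs in adaptive hypertrophy and its share is 2 of 68 cells. The level itself was 2.17-fold higher than healthy in thinned cells of that phase.

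*Serping1* was the most abundant FB member and differed little between phases. It was at 1200 CPM (1165 to 1234, 4661 UMIs) in healthy FBs, 949 CPM (833 to 1077, 240 UMIs) in adaptive hypertrophy and 1249 CPM (1161 to 1343, 738 UMIs) in heart failure. The ratios were 0.791 (0.692 to 0.901) and 1.04 (0.962 to 1.13). A UMI was in 87.8%, 66.3% and 82.6% of FBs.

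In mural cells *Serping1* was at 198 CPM (178 to 220), 286 CPM (226 to 357) and 255 CPM (178 to 355), 6.05-fold, 3.32-fold and 4.89-fold below FBs. In ECs it was at 38.3, 8.59 and 49.7 CPM, lowest in the library where the *Dcn* share of ECs was lowest. Healthy ECs with lymphatic markers (at least 2 UMIs of *Prox1*, *Lyve1* and *Mmrn1*) were 4.99-fold (3.00 to 7.94) above the other ECs, from 22 UMIs in 40 cells. After TAC such ECs held 2 *Serping1* UMIs in 12 cells of adaptive hypertrophy. In heart failure they held 0 in 5 cells, which allows up to 616 CPM.

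Among the members with at least 20 UMIs over both phases, 5 of 7 differed at least 2-fold from healthy in FBs of adaptive hypertrophy and 4 of 7 in heart failure, against 21.7% and 12.2% of all genes. *C4b* was the one of these that was higher, and the rest were the C1q chains and, in adaptive hypertrophy, *C5ar1*, all lower and all low in FBs. In ECs it was 6 of 6 in adaptive hypertrophy, all lower, and 0 of 6 in heart failure, against 8.77% and 16.0% of all genes. In mural cells it was 5 of 6 in both phases, all lower, against 16.7% and 27.2%. In mural cells *Lyz2* had a UMI in 30.0%, 7.32% and 33.3% of cells and *Dcn* in 42.0%, 3.66% and 45.2%. Both were lowest in adaptive hypertrophy, as in ECs, but C1q in mural cells was low in both phases after TAC, at 0.0159 (0.00192 to 0.0574) and 0.0934 (0.0342 to 0.204) of healthy. The part of cell-free RNA in these counts was not tested.

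**Figure D3:**
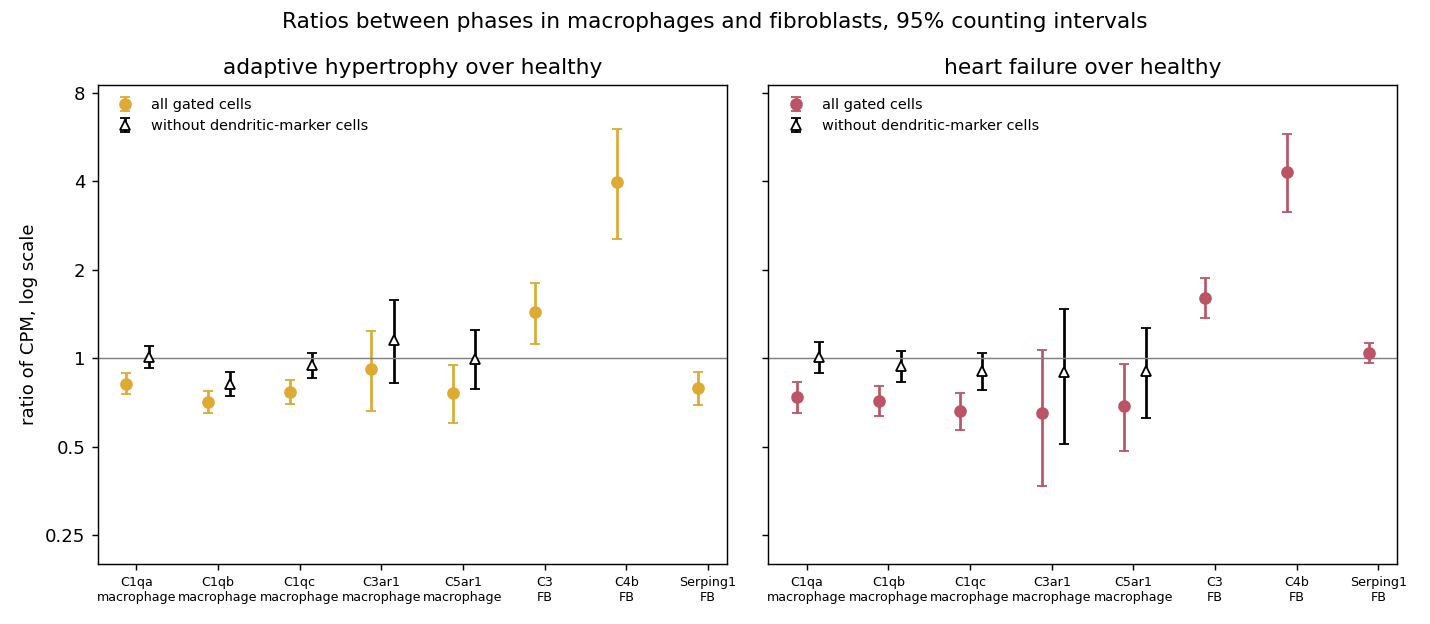
Ratio of each member's CPM to healthy (log axis), in macrophages for C1q, *C3ar1* and *C5ar1* and in FBs for *C3*, *C4b* and *Serping1*, with 95% intervals for counting error, for adaptive hypertrophy (left) and heart failure (right). Filled circles are all gated cells, and open triangles are macrophages without a dendritic marker UMI, which lie closer to 1 for every macrophage member except *C3ar1* in adaptive hypertrophy (0.917 and 1.15).

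FBs differed among themselves in which complement gene they carried. The marker sets used here overlap, so a cell can be in several of them. FBs with at least 2 UMIs of the injury genes *Postn*, *Thbs4* and *Cilp* (374, 60 and 76 cells) had less *C3* than the other FBs in each phase. The levels were 76.5 against 318 CPM in the healthy library, 137 against 1044 CPM in adaptive hypertrophy and 146 against 692 CPM in heart failure. The ratios were 0.240 (0.197 to 0.291), 0.131 (0.0798 to 0.212) and 0.211 (0.152 to 0.289).

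*Serping1* was lower in the same cells by less, with ratios of 0.701, 0.703 and 0.685. *C4b* had ratios of 0.951 (0.637 to 1.41), 0.455 (0.201 to 1.10) and 1.70 (0.991 to 3.04), and all 3 intervals include no difference. These FBs were deeper than the others, at 4064.5 against 2546 median UMIs in the healthy library.

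Within FBs without injury markers, the *C3* ratio to healthy was 3.28 (2.42 to 4.36) in adaptive hypertrophy and 2.17 (1.81 to 2.59) in heart failure, larger than over all FBs. Within those with them it was 1.79 (1.15 to 2.72) and 1.91 (1.36 to 2.65). The share of FBs with injury markers was 31.7% in the healthy library, 69.8% in adaptive hypertrophy and 44.2% in heart failure. Without the cell with most *C3* UMIs in each set, which in adaptive hypertrophy held 24 of 51 and 13 of 28 UMIs, the ratios in adaptive hypertrophy were 1.86 (1.22 to 2.73) without and 1.07 (0.580 to 1.84) with injury markers. In heart failure they were 2.11 (1.74 to 2.53) and 1.74 (1.20 to 2.48). This removal was chosen after the values had been seen.

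FBs with at least 2 UMIs of *Pi16*, *Cd248* and *Dpp4*, genes of adventitial FBs (882, 54 and 109 cells), were poor in *C4b*. They were 74.7%, 62.8% and 63.4% of the FBs of the 3 phases, so the set is most FBs and not a small adventitial group. They held 8.72 CPM against 108 CPM in the other healthy FBs, 53.5 against 288 CPM in adaptive hypertrophy and 40.7 against 324 CPM in heart failure. The ratios were 0.0808, 0.186 and 0.126, with upper limits of 0.126, 0.420 and 0.220. Compared with healthy, *C4b* was higher within these FBs (6.14-fold, 2.65 to 13.1, in adaptive hypertrophy and 4.67-fold, 2.39 to 8.88, in heart failure) and within the others (2.67-fold and 3.00-fold). In the FBs with these genes the *C4b* levels of the 3 phases rest on 27, 10 and 17 UMIs in 17, 6 and 9 cells. *C3* in these FBs was at 193, 219 and 393 CPM, against 319, 576 and 249 CPM in the others. Its ratio to healthy in heart failure was 2.04 (1.70 to 2.43) in FBs with these genes and 0.780 (0.551 to 1.08) in the others, a difference that was not tested. The 576 CPM rest on 38 UMIs, of which 1 cell held 24, and without it the level was 218 CPM.

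A set of 43 healthy FBs with at least 2 UMIs summed over *Inmt* and *Gdf10* was rich in both *C3* and *Serping1*. *C3* was at 784 CPM against 196 CPM in the other FBs (3.99-fold, 3.25 to 4.87), and *Serping1* at 2077 against 1165 CPM (1.78-fold, 1.58 to 2.00). In heart failure the 20 FBs of this set were 1.83-fold (1.24 to 2.63) and 1.84-fold (1.51 to 2.23) above the rest. In adaptive hypertrophy the set held 5 cells with 4 *C3* UMIs. This was not particular to the set. FBs with at least 2 UMIs of *Cxcl14* and *Hsd11b1* numbered 139, 3 and 23. In the healthy library they were 1.27-fold (1.04 to 1.54) above the rest for *C3* and 1.36-fold (1.26 to 1.48) for *Serping1*. In heart failure they were 1.77-fold above for *C3* (1.23 to 2.51) and for *Serping1* (1.47 to 2.13). FBs with at least 2 UMIs of *Wif1*, *Comp* and *Chad*, genes of valve and tendon-like FBs, were low in *Serping1* in the healthy library (641 against 1280 CPM). After TAC their levels were similar to the rest (999 against 905 CPM and 1156 against 1313 CPM).

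**Figure D4:**
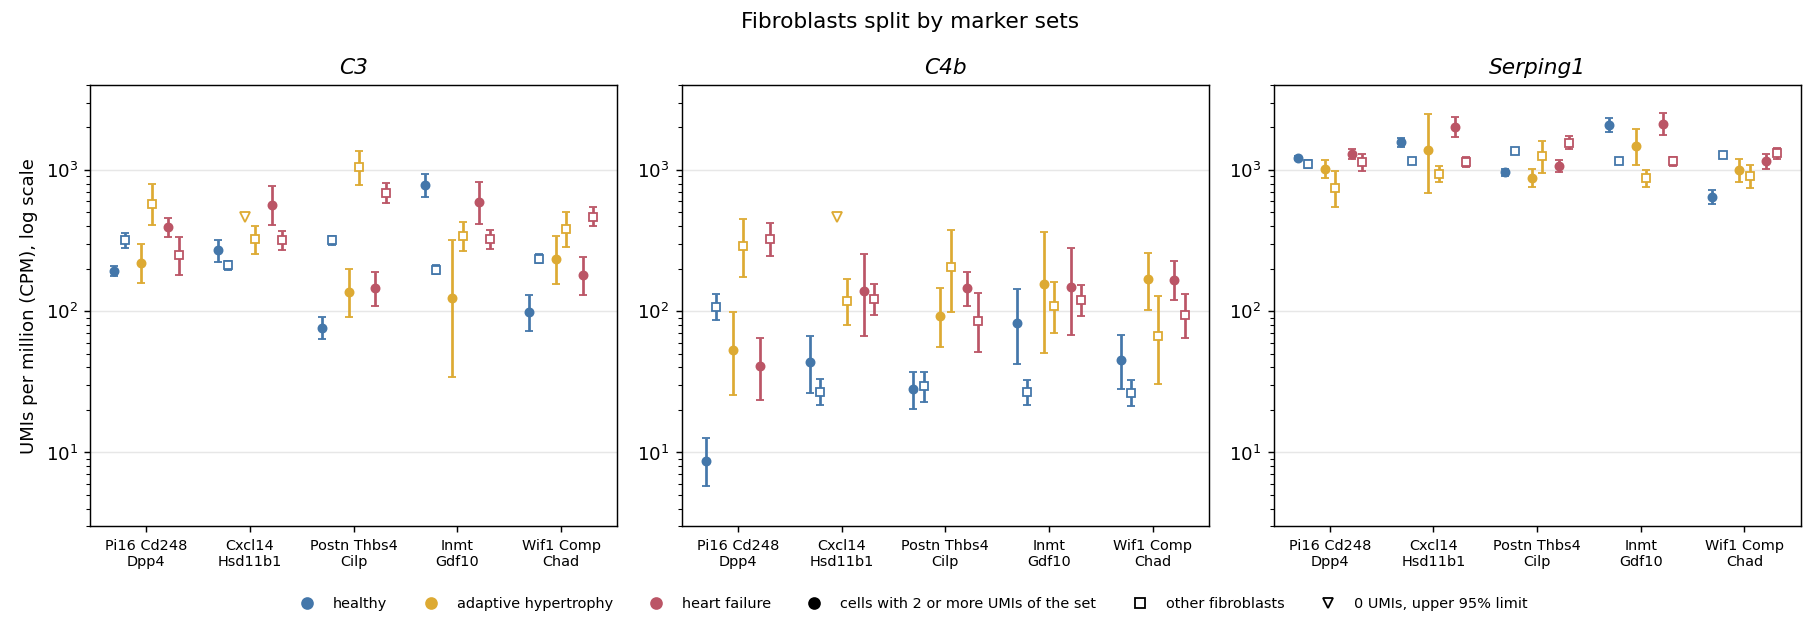
Levels of *C3*, *C4b* and *Serping1* (CPM, log axis) in FBs with at least 2 UMIs of a marker set (filled circles) and in the other FBs (open squares), by phase, with 95% Poisson intervals. *C3* is lower in FBs with *Postn*, *Thbs4* or *Cilp*, and *C4b* is lower in FBs with *Pi16*, *Cd248* or *Dpp4*, in each of the 3 phases.

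The unassigned cells held a large part of the macrophage members. They gave 26.1%, 32.0% and 34.8% of the *C1qa* UMIs of the 3 libraries, and 50.0% of the 46 *C3ar1* UMIs in heart failure. Most of them were below the gate's minimum (310 of 466, 150 of 183 and 119 of 137 cells). Their *C1qa* level was 2574, 1259 and 1034 CPM, so the counts of macrophages given here leave out cells that hold C1q.

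Of 46 other complement genes listed by name, 45 had a row and 13 reached 100 CPM in a class. The highest level was in ECs for 4 of these, in FBs for 3, in mural cells for 3, in monocytes for 2 and in macrophages for 1. The terminal components *C6*, *C8a*, *C8b*, *C9* and *Hc* (C5) were at or near 0, with 2 UMIs in all. Of the other terminal components, *C7* was counted in FBs, at 25.7 CPM (100 UMIs), 3.96 CPM (1 UMI) and 16.9 CPM (10 UMIs), and *C8g* had 8 UMIs over the 5 classes. A total of 10 genes had 0 UMIs in the 5 classes.

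The classical proteases were stromal. *C1s1* was highest in mural cells, at 238, 512 and 306 CPM, a ratio to healthy of 2.15 (1.76 to 2.61) in adaptive hypertrophy and 1.29 (0.913 to 1.77) in heart failure. In FBs it was at 80.8, 131 and 159 CPM, and *C1ra* at 66.4, 111 and 164 CPM, with *C1ra* 2.47-fold (1.94 to 3.13) above healthy in heart failure. C1q and its proteases were therefore most abundant in different classes.

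Among regulators, *Clu*, which blocks the terminal complex, was at 292, 180 and 897 CPM in ECs, 3.08-fold (2.74 to 3.45) above healthy in heart failure. *Vtn* was a mural gene at 147, 59.4 and 328 CPM, and the membrane inhibitor *Cd55* an FB gene at 181, 94.9 and 129 CPM.

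*Cfp*, the properdin that stabilizes the alternative convertase, was at 205, 186 and 451 CPM in macrophages. *Cd93*, listed here among the receptors, was at 599, 688 and 489 CPM in ECs. The integrin chain *Itgb2*, part of the iC3b receptors, was highest in monocytes at 319, 361 and 412 CPM. *Colec11* in mural cells had 108, 4 and 20 UMIs and *Colec12* in FBs was at 87.5, 91.0 and 154 CPM. *Cd59a* and *Cr1l*, inhibitors at the cell surface, were at 107 and 133 CPM in healthy ECs.

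**Figure D5:**
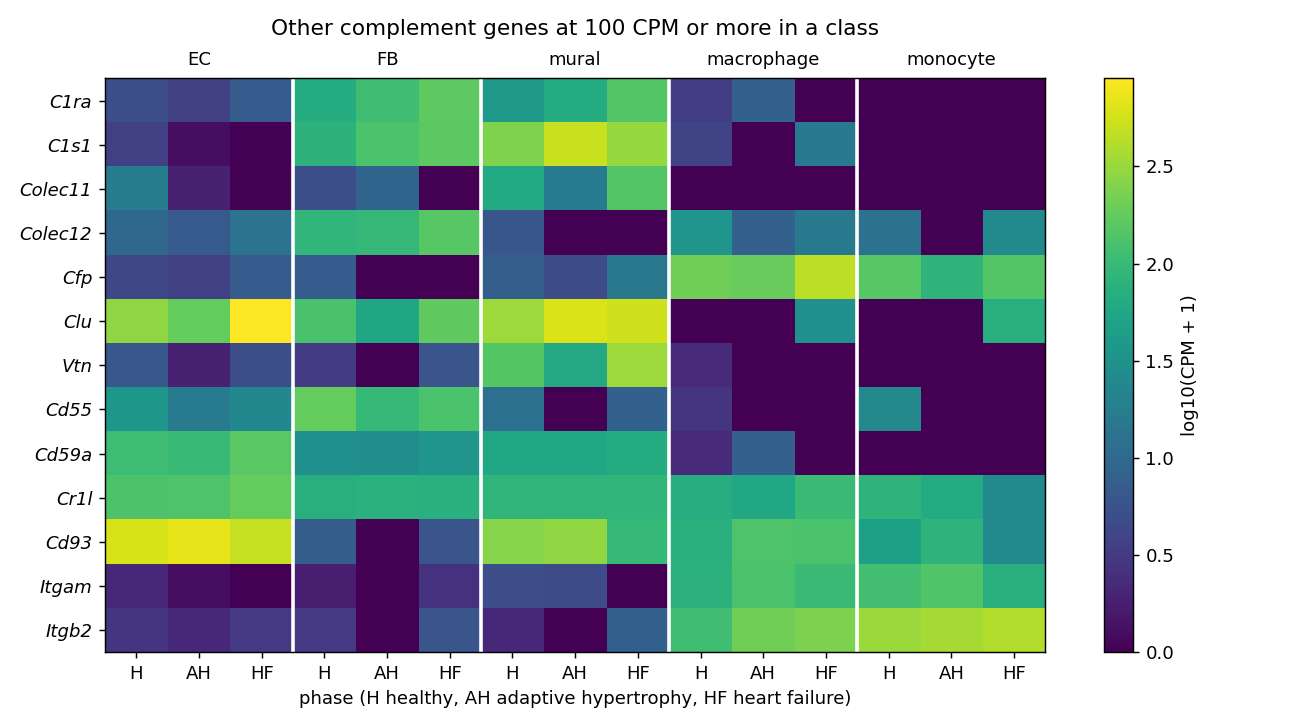
Levels of the 13 other complement genes at 100 CPM or more in a class, as log10(CPM + 1) in color, for 5 classes by 3 phases. *Clu* in ECs is the highest level (897 CPM in heart failure), and the leukocyte integrin genes *Itgam* and *Itgb2* appear in macrophages and monocytes.

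The genes with the pattern most like each member were named by Pearson's r of log2(CPM + 1) over the 15 levels (5 classes by 3 phases), among 3530 genes. The members and the marker genes of the gates were left out, so neither the other C1q chains nor the macrophage gate markers could be named. The levels of a phase share 1 library and its cell-free RNA, so r is a description. The closest to *C1qa* were *Cxcl2* (0.97), *Fcgr3* (0.96) and *Cd74* (0.96). *C3ar1* was followed most closely by *Fcrls* (0.98) and *C5ar1* by *Ccl3* (0.98). For *Serping1* they were *Ccdc80* (0.95), *Cygb* (0.94) and *P3h3* (0.93), and for *C3* *Nupr1* (0.93), *Dap* (0.90) and *Adcy7* (0.86). *C4b*, with fewer counts, had lower values, led by *P4hb* (0.86).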

How the data were processed

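Per the labels, Chromium Single Cell 3′ v2 libraries were made from ventricular non-cardiomyocytes. The authors deposited raw UMI counts per gene and cell, without normalization, made with Cell Ranger 2.0.0 on mm10 according to the submitters' processing notes. Weeks of TAC were taken from the names of the deposited tables. A minimum of 200 genes per cell left out 8, 8 and 10 cells. The totals were 12287823, 4465929 and 1712728 UMIs. Between 1 and 5 cell barcodes were shared by any 2 libraries.

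Cells were gated on 10 marker lists, and ties or mixed markers were left unassigned. No doublet caller was run. Cells were also thinned to 1000 UMIs. UMIs were summed per class and divided by the class total (CPM), with exact Poisson, conditional binomial and Clopper-Pearson intervals. A level of 0 was given the limit of 3 counts. For the share of genes with a 2-fold difference, 1 CPM was added and 20 UMIs over both groups were required. Computations used Python 3.11.15, numpy 2.4.6, scipy 1.17.1, pandas 2.3.3 and matplotlib 3.10.9, and the interval code was tested on simulated data. Gene positions are from GENCODE (GRCm38), and promoters from RefSeq (GRCm38.p6).

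All 8 members are described, and of the other complement genes those at 100 CPM or more in a class. A further gene is not reported here. Where a symbol had 2 rows (*Itgam*, *C1s2*), the first was used. The members and lists were chosen with earlier results of these data known. The alternatives are other gates, depths, filters and scalings.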

Additional observations from a re-analysis of the deposited data

Results flagged for a closer look

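With 1 library per phase, the differences in direction below were not tested and rest on counting error alone. *C1qc* in heart failure had a ratio to healthy of 1.86 in ECs (26 UMIs), 0.123 in FBs (3 UMIs), 0.659 in macrophages and 0.0 in mural cells, which had 0 UMIs against 226 in the healthy library. *C3* in adaptive hypertrophy was at 0.0690 of healthy in ECs and 1.43 in FBs. *Serping1* in the same phase was at 0.224 in ECs, 0.791 in FBs and 1.44 in mural cells. The *Dcn* share of ECs was 44.2% in the healthy library and 4.15% in adaptive hypertrophy, and its part in the EC ratios was not tested.

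Within macrophages, *C1qa* was higher than healthy in cells with resident markers, at 1.40 in adaptive hypertrophy and 1.46 in heart failure, and lower in the others, at 0.735 and 0.452. *C1qc* in heart failure gave 1.25 and 0.429. The cells with resident markers after TAC numbered 6 and 3.

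Within FBs of adaptive hypertrophy, *Serping1* was at 1.56 of healthy in cells with *Wif1*, *Comp* or *Chad* and 0.707 in the others. *C3* was at 0.159 in the 5 cells with *Inmt* or *Gdf10* and 1.73 in the others. In neural cells, a class outside the comparisons above, *C4b* was at 134 CPM (13 UMIs) in the healthy library and 406 CPM (15 UMIs) in adaptive hypertrophy, a ratio of 3.04 (1.35 to 6.93), and at 322 CPM (7 UMIs) in heart failure.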

How the results depend on the processing

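No paired analysis was possible because each phase is 1 library. Of 252 values (18 ratios under 14 alternatives), 204 stayed within the interval of the reported ratio, 45 moved out of it and 3 turned to the other side of 1. The cause of these shifts was not tested. The alternatives that leave out the top cell or the cells with dendritic markers were chosen after seeing the data. Leaving out macrophages with dendritic markers cannot change the FB ratios, and these values are counted among those that stayed. For the C1q sum in macrophages of adaptive hypertrophy, the values that moved were 0.712 with 1 marker UMI per cell, 0.943 with 3, 0.723 with 90% of gate UMIs, 0.727 with *Csf1r* and *Mrc1* in the gate, 0.725 without the top cell and 0.920 without cells with dendritic markers. In heart failure they were 0.195 with 90% of gate UMIs (4 cells), 0.551 without cells above the 95th percentile of UMIs, 0.769 divided by the median ratio of all genes, 0.562 without the top cell and 0.953 without cells with dendritic markers. *C1qa* in macrophages turned to 1.01 in both phases without those cells. *C3* in FBs of adaptive hypertrophy turned to 0.958 with 3 marker UMIs and moved to 1.12 with 90% of gate UMIs, 2.09 thinned to 1000 UMIs and 1.03 without the top cell. In heart failure it moved to 1.89 with 90% of gate UMIs, 2.23 as the mean over cells and 1.94 thinned. *C4b* in FBs of adaptive hypertrophy moved to 6.29 as the mean over cells and 2.17 thinned, and in heart failure it stayed between 4.07 and 5.48. *Serping1* in FBs moved to 0.634 and 1.17 when thinned. The macrophage values after TAC rest on 45 and 14 cells.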
